A study of Mus musculus with 4 samples.

Results

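*Dusp4*, *Etv4*, *Spry4* and *Fos* are target genes of the ERK pathway, and they were taken by name as 4 of the 1577 genes in the deposited table of 46C mESCs treated with the PKC inhibitor Go6983. Total RNA was sequenced from 2 samples kept for 24 h in serum-containing medium with 5 μM Go6983 and from 2 samples kept in control medium without it (no treatment, NT). Both groups were 46C cells, 1 mouse ESC line that carries a GFP reporter at *Sox1*. The sources used here do not say whether LIF was in the medium of these samples, whether the NT medium held the solvent of Go6983, or whether the 2 replicates were separate cultures, so the p-values measure only the spread between these samples. Values are normalized counts, which are read counts divided by 1 size factor per sample.

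The ERK pathway carries signals from receptor tyrosine kinases through RAS, RAF and MEK to the kinases ERK1 and ERK2. In mESCs the main input is FGF made by the cells themselves, and ERK activity moves them out of the naive state towards differentiation. Active ERK switches on immediate early genes such as *Fos* within minutes and then a slower set that includes ETS factors and inhibitors of the pathway, the Sprouty proteins and the dual-specificity phosphatases, which hold the signal in check. PKC, the target of Go6983, is known to feed into RAS and RAF in many cell types.

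The feedback genes *Dusp4* and *Spry4* and the ETS factor gene *Etv4* fell in Go6983-treated cells to between 0.355 and 0.435 of their NT level, whereas the immediate early gene *Fos* rose by 1.00 on the log2 scale. In the limma fit over all 1577 genes, each of the 4 was called at an adjusted p below 0.05, 3 lower and 1 higher. The authors had kept in the table only genes they called changed, the smallest absolute log2 fold change in it being 1.00. In the same fit 98.5% of its genes were called, 29.7% lower and 68.8% higher, so being called is no result about these 4 genes. In 99.7% of the genes the Go6983 samples did not overlap the NT samples. What the table adds for each gene is its level, its direction, its size and its spread.

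*Dusp4* (ENSMUSG00000031530), on chromosome 8 of GRCm38 from 34807297 to 34819894, encodes a nuclear phosphatase that removes the activating phosphates from ERK and other MAP kinases. It had 877 and 822 normalized counts in the Go6983 samples, against 2501 and 2281 in the NT samples. The groups were far apart, and the higher replicate was 1.07 times the lower in Go6983-treated cells and 1.10 times in NT cells. The mean was 850 ± 39.2 in Go6983-treated cells and 2391 ± 156 in NT cells (SD, n = 2 each). The log2 fold change of *Dusp4* was -1.49 (standard error 0.10, 95% interval -1.75 to -1.23, limma adjusted p = 0.000388).

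*Etv4* (ENSMUSG00000017724) encodes an ETS transcription factor of the PEA3 group. Its GRCm38 position is chromosome 11, 101769742 to 101785371. *Etv4* had 667 and 653 normalized counts in the Go6983 samples, against 1740 and 1732 in the NT samples. Replicates lay closer together for *Etv4* than for the other 3 genes, with a coefficient of variation of 1.56% in Go6983-treated cells and 0.343% in NT cells, below the 3.89% and 2.41% expected from counting error alone at those read numbers. With 2 samples a group such closeness can arise by chance. The log2 fold change of *Etv4* was -1.39 (standard error 0.095, 95% interval -1.63 to -1.16, limma adjusted p = 0.000388).

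*Spry4* (ENSMUSG00000024427) encodes a Sprouty protein that inhibits signaling from receptor tyrosine kinases upstream of ERK. Its GRCm38 position is chromosome 18, 38586247 to 38601415. *Spry4* had 3440 and 3025 normalized counts in the Go6983 samples, against 7922 and 6941 in the NT samples. *Spry4* had the most reads of the 4 genes, and its replicates were apart by more than counting error, with a coefficient of variation of 9.08% in Go6983-treated cells and 9.34% in NT cells against a counting error of 1.75% and 1.16%. The groups still did not overlap. The log2 fold change was -1.20 (standard error 0.12, 95% interval -1.49 to -0.91, limma adjusted p = 0.000485).

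*Fos* (ENSMUSG00000021250) encodes the leucine zipper protein that pairs with JUN proteins to form AP-1. Its GRCm38 position is chromosome 12, 85473890 to 85477273. *Fos* had 323 and 363 normalized counts in the Go6983 samples, against 153 and 190 in the NT samples. The lowest Go6983 value thus exceeded the highest NT value. *Fos* had the fewest reads of the 4 genes, with 346 and 339 in the Go6983 samples and 154 and 186 in the NT samples. The exact Poisson 95% intervals, which cover counting error only, were 290 to 359 and 325 to 404 normalized counts in the Go6983 samples and 130 to 179 and 164 to 219 in the NT samples. The log2 fold change of *Fos* was 1.00 (standard error 0.17, 95% interval 0.58 to 1.43, limma adjusted p = 0.00310). This was the smallest rise in the table, in place 1099 of the 1099 genes with a positive log2 fold change, so that *Fos* was at the edge of what the authors listed. Its call was lost without either Go6983 sample, where most genes called higher in the table lost theirs too. The log2 fold change of *Fos* moved little, to 1.08 when Go6983 replicate 1 was left out and to 0.92 when Go6983 replicate 2 was. With the libraries scaled by the median ratio of the listed genes, *Fos* turned direction, at -0.12 (limma adjusted p = 0.676).

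The stretch just before the start of *Fos* is shown because *Fos* was the only one of the 4 that went up and the only one with a promoter in the RefSeq table used here (GRCm38.p6). It is the plus strand of chr12:85473640-85473889, the 250 bases before the start, written 5′ to 3′, and the capitals mark the matches named after it.

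Fos: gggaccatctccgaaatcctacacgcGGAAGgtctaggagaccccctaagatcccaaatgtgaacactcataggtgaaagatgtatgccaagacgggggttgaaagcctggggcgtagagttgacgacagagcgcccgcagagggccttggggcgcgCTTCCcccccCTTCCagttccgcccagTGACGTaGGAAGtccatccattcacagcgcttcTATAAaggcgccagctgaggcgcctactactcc

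On both strands of this stretch 5 motifs were searched. The core of the cAMP response element, TGACGT, starts 66 bases before the gene and is found in 6.47% of all 32851 promoter entries over the same length. A TATA box, TATAA, starts 33 bases before the gene (22.8% of all entries). The ETS motif as searched, GGAAG, is found 4 times, on either strand (64.1% of all entries hold it). Shorter forms of it were not searched, so 4 is not a count of every possible ETS site. The cAMP response element core and the GGAAG copy after it are separated by 1 base. Neither the AP-1 motif TGANTCA (6.75% of all entries) nor a CArG box (1.47% of all entries), the element that serum response factor binds, is in these 250 bases, which says nothing on sequence further out. Of the 12 other pathway genes of the table that have an entry, 0 had the TGACGT core, 2 the TATA box and 10 the GGAAG motif. These are matches of letters, and no binding was measured.

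**Figure D1:**
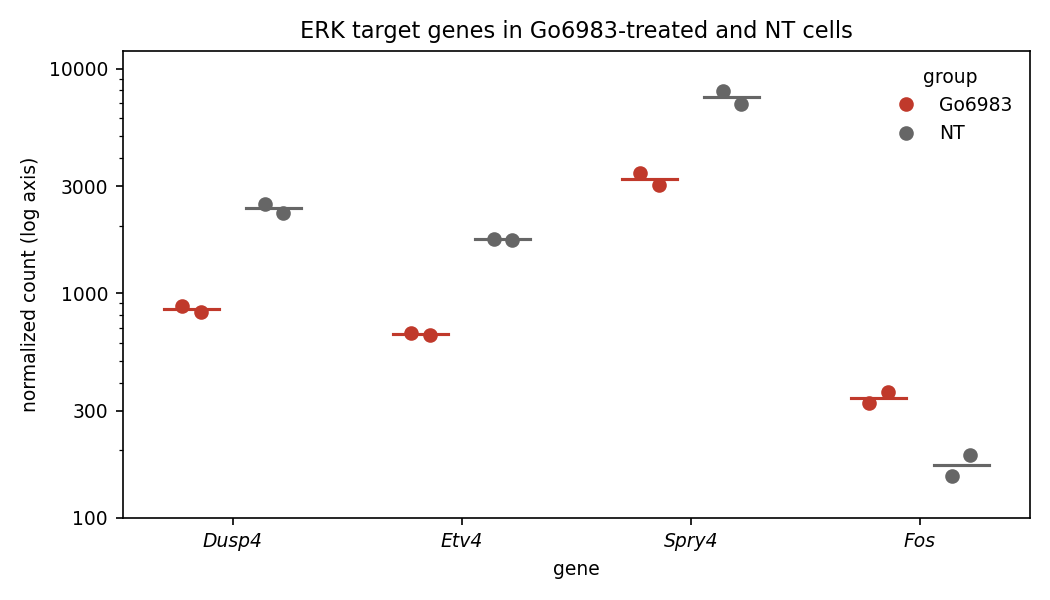
Normalized counts (log axis) of *Dusp4*, *Etv4*, *Spry4* and *Fos* in the 2 Go6983 samples (red, left) and the 2 NT samples (grey, right), with 1 point per sample and a line at the group mean. The Go6983 samples sit below the NT samples for *Dusp4*, *Etv4* and *Spry4* and above them for *Fos*, at 323 and 363 against 153 and 190.

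Set against each other within a sample, the genes give ratios that no scaling of the libraries can alter. For every 100 normalized counts of *Dusp4* there were 36.8 and 44.1 of *Fos* in the Go6983 samples, against 6.12 and 8.33 in the NT samples. This ratio was 5.64 times as high in Go6983-treated cells as in NT cells. For every 100 counts of *Etv4* there were 48.4 and 55.6 of *Fos* in the Go6983 samples, against 8.80 and 10.97 in the NT samples, a ratio 5.28 times as high. For every 100 counts of *Spry4* there were 9.39 and 11.996 of *Fos* in the Go6983 samples, against 1.93 and 2.74 in the NT samples, a ratio 4.61 times as high. Against each of the other 3 genes *Fos* was thus higher in both Go6983 samples than in either NT sample. The authors listed only genes with an absolute log2 fold change of at least 1.00. A listed gene that rose therefore had to gain on any that fell. The direction and much of the size of these rises came with that selection and are no result about *Fos*. These ratios are given without a test, because the genes were picked with their directions known and 2 samples against 2 cannot go below p = 0.333 in an exact two-sided permutation test.

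Among the 3 genes that fell the ratios moved far less. For every 100 normalized counts of *Etv4* there were 131 and 126 of *Dusp4* in the Go6983 samples, against 144 and 132 in the NT samples, and the mean log2 ratio differed by -0.097, with SDs of 0.044 in Go6983-treated cells and 0.089 in NT cells. The ratio of *Dusp4* to *Spry4* differed more, with 25.5 and 27.2 counts of *Dusp4* for every 100 of *Spry4* in the Go6983 samples, against 31.6 and 32.9 in the NT samples. The mean log2 ratio of *Dusp4* to *Spry4* differed by -0.29, with no overlap between the groups.

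**Figure D2:**
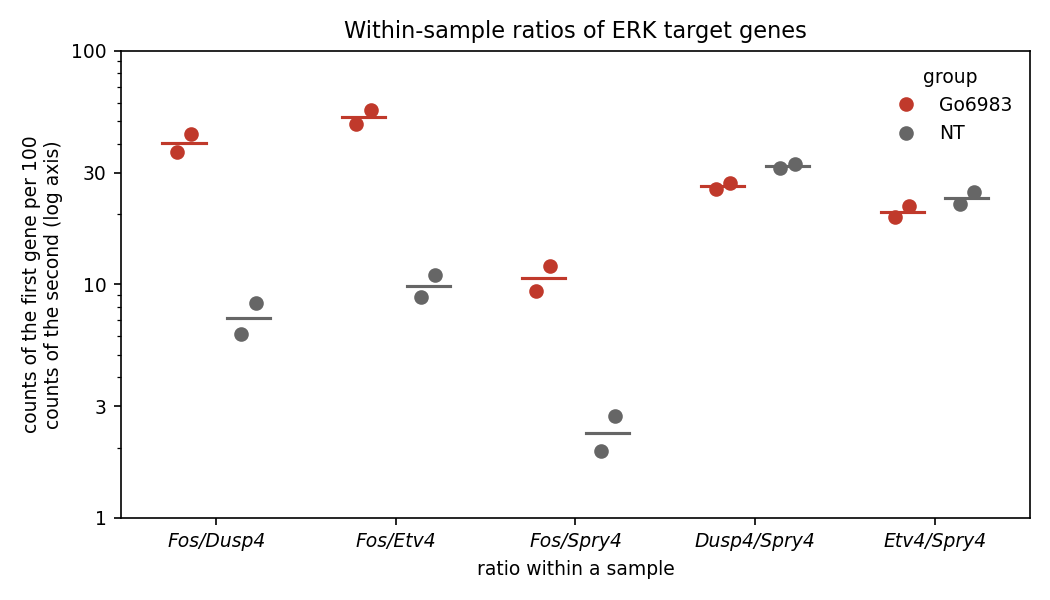
Normalized counts of the first gene for every 100 of the second (log axis), within each sample, in the 2 Go6983 samples (red, left) and the 2 NT samples (grey, right), with each line at the geometric mean of its group. The ratio of *Fos* to *Dusp4* is 36.8 and 44.1 with Go6983 against 6.12 and 8.33 in NT cells, whereas those of *Dusp4* and *Etv4* to *Spry4* lie closer together.

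Levels of different genes were compared per kilobase of their exons, merged over all transcripts of GENCODE M21, as normalized counts per kilobase. In Go6983-treated cells *Spry4* was at 680 ± 61.7, *Dusp4* at 310 ± 14.3, *Etv4* at 213 ± 3.31 and *Fos* at 146 ± 11.98 normalized counts per kilobase (mean ± SD, n = 2). In NT cells the order was the same, with *Spry4* at 1563 ± 146, *Dusp4* at 873 ± 56.9, *Etv4* at 559 ± 1.92 and *Fos* at 73.0 ± 11.1 normalized counts per kilobase. No neighbours in either order overlapped in their samples. Between the lowest and the highest of the 4 genes the gap was thus far narrower with Go6983 than without it. That follows from the fall of *Spry4* and the rise of *Fos* and adds nothing to them. By size of change, *Dusp4* was in place 239, *Etv4* in place 277 and *Spry4* in place 356 of the 478 genes with a negative log2 fold change, so none of the 3 was among the largest falls. By mean normalized count they were among the abundant genes of the table, with 93.5% of the genes below *Dusp4*, 91.3% below *Etv4*, 97.5% below *Spry4* and 76.2% below *Fos*.

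The rest of the pathway was read from 170 genes in 7 roles, of which 20 were in the table. The other 150 were not analysed here. Of the 20 genes, 15 fell and 5 rose in Go6983-treated cells, with a median log2 fold change of -1.16, beside 469 genes lower, 1085 higher and a median of 1.21 over the whole table. Without *Dusp4*, *Etv4*, *Spry4* and *Fos*, 12 of the 16 others fell and 4 rose, with a median of -1.14. The 7 role lists were chosen with earlier results of these data known. These counts therefore describe the listed genes and do not test the pathway. When the libraries were instead scaled by the median ratio of the listed genes, which by construction centres a list selected for change and shifts fold changes by a median of -1.10 log2, 15 of the 20 were lower and 0 higher (0 also at an unadjusted limma p below 0.05), and the split of the table was 176 higher and 476 lower. When either Go6983 sample was left out, *Fos*, *Gab2* and *Prkcq* lost their calls, as did most genes called higher in the table. The log2 fold changes without replicate 1 stayed positive, at 1.08 for *Fos*, 1.54 for *Gab2* and 1.70 for *Prkcq*. Without replicate 2 they were 0.92, 1.65 and 1.51.

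Both ligand genes in the table fell. *Fgf5*, which encodes the fibroblast growth factor of the epiblast, had 233 and 225 normalized counts in the Go6983 samples, against 1438 and 1298 in the NT samples (log2 fold change -2.57, limma adjusted p = 0.000375). *Fgf15*, which encodes a fibroblast growth factor that acts as a hormone in the adult, had 724 and 556 normalized counts in the Go6983 samples, against 2598 and 2627 in the NT samples. These were the largest and the second largest falls among the 20 genes. *Fgf15* shares exon sequence with the antisense gene *Gm26793*, which is also listed, at 30.4 ± 20.3 normalized counts in Go6983-treated cells and 67.4 ± 14.4 in NT cells (SD, n = 2 each). The sources used here do not say whether reads were counted by strand.

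Among receptor genes, *Fgfr2*, which encodes a receptor for FGF, had 260 and 174 normalized counts in the Go6983 samples, against 690 and 560 in the NT samples (log2 fold change -1.54, limma adjusted p = 0.00177). The exons of *Fgfr2* overlap on the same strand those of *Ctbp2*, which was not analysed here. *Kit*, which encodes the receptor for stem cell factor, went the other way, with 5472 and 5516 in the Go6983 samples and 2677 and 2605 in the NT samples (log2 fold change 1.06, limma adjusted p = 0.000428). *Kdr*, which encodes a VEGF receptor, had 74.7 and 35.3 normalized counts in the Go6983 samples, against 113 and 121 in the NT samples. Its limma adjusted p of 0.0264 became 0.0922 without Go6983 replicate 2, 0.154 without NT replicate 1 and 0.174 without NT replicate 2, and without Go6983 replicate 2 its log2 fold change was -0.64 in place of -1.17. With the libraries scaled by the median ratio, the log2 fold change of *Kit* was -0.066.

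Between receptor and ERK, *Rasgrp1*, which encodes a RAS activator that responds to diacylglycerol, had 270 and 299 normalized counts in the Go6983 samples, against 119 and 104 in the NT samples (log2 fold change 1.34, limma adjusted p = 0.000962). *Gab2*, a docking protein gene, had 179 and 167 in the Go6983 samples, against 44.8 and 71.5 in the NT samples. The adaptor gene *Shc4* had 23.3 and 18.2 in the Go6983 samples, against 55.7 and 48.0 in the NT samples. Both genes had few reads. *Gab2* lost its call when either Go6983 sample was left out, as most genes called higher did. Its log2 fold change was then 1.54 without replicate 1 and 1.65 without replicate 2. *Shc4* was not called whichever replicate was left out, with log2 fold changes from -1.46 to -1.12. The exons of *Shc4* also overlap those of *Eid1*, which was not analysed here. *Rasgrp1* and *Gab2* had log2 fold changes of 0.22 and 0.48 with the median ratio scaling and were then not called.

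Of 9 PKC genes, 2 were in the table and they moved in opposite directions. *Prkch*, which encodes PKCη, had 106 and 80.3 normalized counts in the Go6983 samples, against 235 and 234 in the NT samples (log2 fold change -1.33, limma adjusted p = 0.00202). *Prkcq*, which encodes PKCθ, had 25.2 and 28.9 in the Go6983 samples, against 10.9 and 6.13 in the NT samples (log2 fold change 1.60, limma adjusted p = 0.0133). *Prkcq* had no more than 27 reads in any sample. It was not called without Go6983 replicate 1, Go6983 replicate 2 or NT replicate 2, at log2 fold changes of 1.70, 1.51 and 1.23. With the median ratio scaling its log2 fold change was 0.55, and it was not called.

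The relatives of *Dusp4*, *Spry4* and *Etv4* that were in the table fell as well. *Dusp6*, which encodes a cytoplasmic phosphatase specific for ERK, had 2510 and 2229 normalized counts in the Go6983 samples, against 4788 and 4802 in the NT samples (log2 fold change -1.02, limma adjusted p = 0.000488). *Spred3*, which encodes a Sprouty-related inhibitor of RAS signaling, had 746 and 808 in the Go6983 samples, against 1735 and 1543 in the NT samples (log2 fold change -1.07, limma adjusted p = 0.000550). The exons of *Spred3* overlap those of *Ggn*, which was not analysed here. *Etv1*, which encodes another ETS factor of the PEA3 group, had 1420 and 1302 in the Go6983 samples, against 3057 and 2781 in the NT samples (log2 fold change -1.10, limma adjusted p = 0.000484). In all, 4 of the 22 feedback inhibitors and 2 of the 15 ETS factors and other delayed targets were in the table, and each of these 6 fell.

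Relative to *Dusp6*, *Dusp4* was lower in both Go6983 samples than in either NT sample, with 35.0 and 36.9 counts of *Dusp4* for every 100 of *Dusp6* in the Go6983 samples, against 52.2 and 47.5 in the NT samples. Relative to *Etv1*, *Etv4* was lower too, with 47.0 and 50.2 counts for every 100 of *Etv1* in the Go6983 samples, against 56.9 and 62.3 in the NT samples. For *Spry4* and *Spred3* the groups overlapped, with 461 and 374 counts of *Spry4* for every 100 of *Spred3* in the Go6983 samples, against 457 and 450 in the NT samples. These differences between genes were not tested.

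Of 40 immediate early genes, 4 were in the table, and *Fos* was the only one of them that rose. *Mycn*, a MYC family gene, had 2637 and 2146 normalized counts in the Go6983 samples, against 9303 and 8283 in the NT samples (log2 fold change -1.88, limma adjusted p = 0.000388). *Myc* had 1346 and 1019 in the Go6983 samples, against 2500 and 2632 in the NT samples (log2 fold change -1.13, limma adjusted p = 0.00125). *Sgk1*, which encodes a kinase induced by serum and glucocorticoids, had 1406 and 1247 in the Go6983 samples, against 3122 and 2743 in the NT samples (log2 fold change -1.14, limma adjusted p = 0.000514). For every 100 counts of *Myc* there were 24.0 and 35.6 of *Fos* in the Go6983 samples, against 6.13 and 7.22 in the NT samples. As with the other ratios of *Fos*, the direction of this difference came with the selection of the listed genes. *Fosb*, the *Jun* genes and the *Egr* genes were not analysed here, so whether *Fos* moved alone among the genes that respond fastest is not known from these values.

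**Figure D3:**
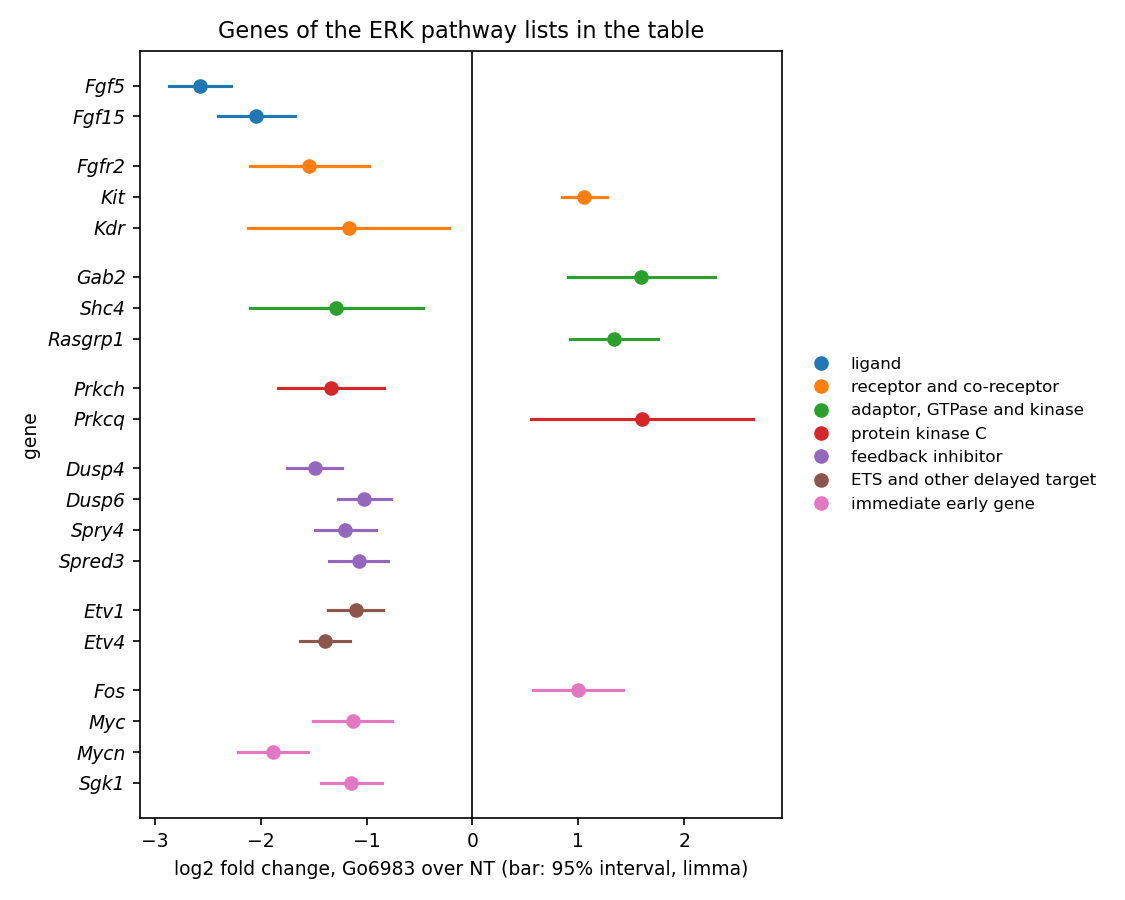
Log2 fold change of Go6983 over NT for the 20 pathway genes in the table, grouped by role and coloured by it, with points for the limma estimate and bars for its 95% interval. The ligand, feedback and ETS genes lie left of 0, while *Kit*, *Gab2*, *Rasgrp1*, *Prkcq* and *Fos* lie right of it, *Fos* at 1.00 with an interval from 0.58 to 1.43.

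The genes most like each of the 4 in their pattern over the 4 samples were found by the distance between log2 values, each gene centred on its own mean, leaving out genes that averaged under 50 normalized counts. *Sgk1* was the third closest to *Spry4*, at 0.058 on the log2 scale, after *Nav2* at 0.049 and *Slc38a2* at 0.051. *Slc38a2*, an amino acid transporter gene, was far more abundant, with 19039 ± 1140 normalized counts in Go6983-treated cells and 44471 ± 3866 in NT cells (SD, n = 2 each). Closest to *Etv4* were *Gm40849* at 0.033, *Mlana* at 0.051 and *Gm43805* at 0.068. Closest to *Dusp4* were *Tmem254b* at 0.068, *Dnah11* at 0.079 and *Tmem254c* at 0.086, of which *Tmem254b* and *Tmem254c* are near-identical copies whose reads the counting may have split. Closest to *Fos* were *Tspo2* at 0.067, *B2m* at 0.070 and *Adgrb3* at 0.095. *B2m*, which encodes the light chain of MHC class I, had 2554 ± 122 normalized counts in Go6983-treated cells and 1254 ± 155 in NT cells (SD, n = 2 each). Among the 4 genes themselves *Dusp4* and *Etv4* were 0.14 apart, *Etv4* and *Spry4* 0.26, and *Dusp4* and *Spry4* 0.30, whereas *Fos* was between 2.24 and 2.52 from each. Every listed gene changed by at least 1.00 on the log2 scale. Any gene that rose is therefore far from any that fell by this measure.

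Of 16 genes that mark mESCs, 3 were in the table, with *Nanog* and *Klf4* higher and *Utf1* lower. Their summed level was 58115 and 59052 normalized counts in the Go6983 samples and 45252 and 46409 in the NT samples. That sum joins opposite changes. Mean counts in Go6983-treated and NT cells were 34286 and 16447 for *Nanog*, 14163 and 7010 for *Klf4*, and 10135 and 22374 for *Utf1*. Of markers of other cell types, 3 trophoblast genes of 8 (*Tead4*, *Tfap2c* and *Esx1*) were in the table and higher (summed level 4767 and 5161 in the Go6983 samples, 1962 and 1859 in the NT samples), as was 1 fibroblast gene of 8 (*Col1a2*), while 2 neural genes of 8 (*Pax6* and *Neurod1*, summed level 432 and 349 in the Go6983 samples, 1538 and 1328 in the NT samples) and 1 mesoderm gene of 8 (*Kdr*) were lower. None of 9 primitive endoderm genes had a value. The part of cells of another type in the levels of *Dusp4*, *Etv4*, *Spry4* and *Fos* was not tested, and in bulk RNA fewer cells with a transcript and less of it per cell cannot be told apart. No exon of the 4 genes overlaps that of another gene in GENCODE M21. The listed genes held 1054236 and 927603 reads in the Go6983 samples and 929813 and 859777 in the NT samples, and the total depth is unknown.

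**Figure D4:**
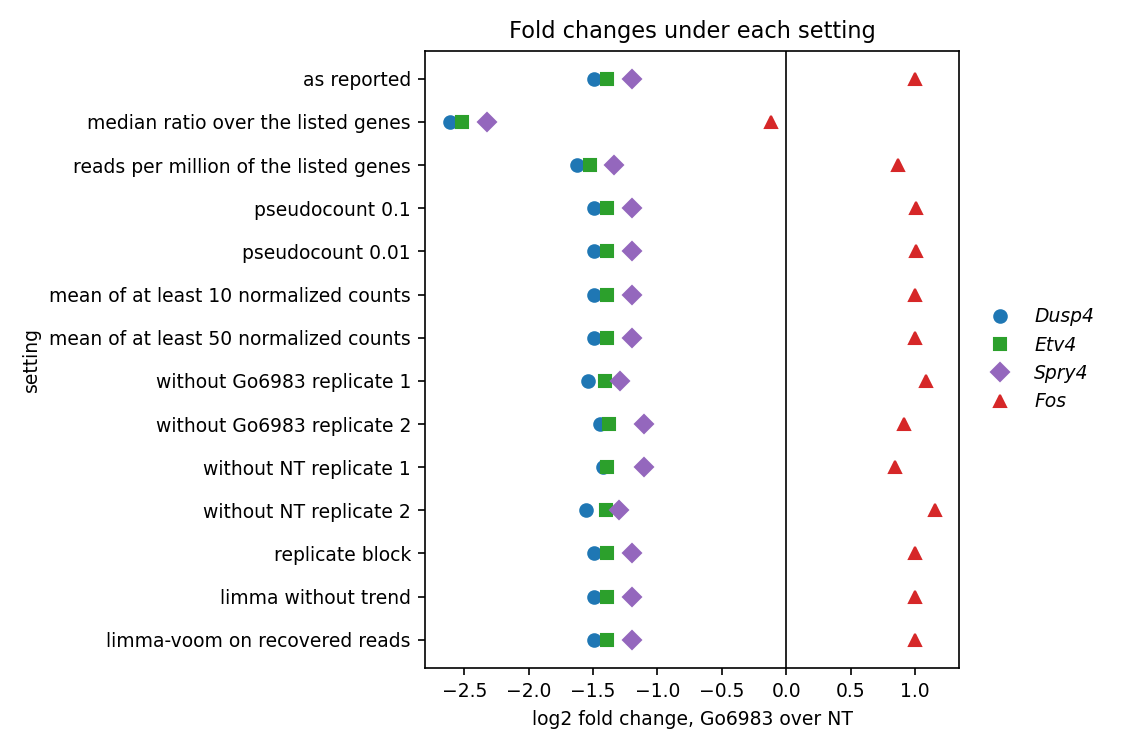
Log2 fold change of Go6983 over NT for *Dusp4*, *Etv4*, *Spry4* and *Fos* (horizontal axis) as reported and under each of 13 other settings (vertical axis), with 1 point for each gene. *Dusp4*, *Etv4* and *Spry4* stay left of 0 throughout, and *Fos* stays right of 0 except with the median ratio over the listed genes, where it is at -0.12.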

How the data were processed

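RNA-sequencing of 4 samples of 46C mESCs was analysed, 2 with Go6983 and 2 NT, grouped by their titles. Bowtie 0.12.2 and mm9 are the aligner and build listed by the submitters' processing notes. The tools for counting and normalization and the annotation were not given in the sources used here. Each gene and sample has 1 log2 value in the deposited table. Converted back as 2 to the power of the value, minus 1, they were reads divided by a size factor, 100% of them whole to within 0.05 reads, although the paper's legends speak of FPKM. The size factors so recovered were 1.071 and 0.934 (Go6983) and 1.006 and 0.979 (NT). The table also holds group means and the authors' fold changes, p-values and adjusted p-values, which were not used.

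Fold changes were fitted on the deposited log2 values with limma 3.58.1 in R 4.3.3 (lmFit, eBayes with trend, no filter, no replicate block), with Benjamini-Hochberg adjustment over all 1577 genes, and called at an adjusted p below 0.05. Prior degrees of freedom were 3.63 and residual ones 2. The list was chosen by the authors on these very samples, which can make the spread, and with it the p-values, too low. A fold change on the log2(normalized count + 1) scale understates that of genes with few reads. Gene IDs were looked up in GENCODE M21 (GRCm38) for symbols and coordinates (1572 of 1577 matched), and promoters from RefSeq (13 of the 20 pathway genes matched by symbol). The 4 genes and the 7 role lists, with the marker lists, were chosen with earlier results of these data known. Named genes are the 4, every pathway gene in the table, the 3 genes most like each of the 4, and called markers. *Gm26793* (an antisense partner), *Eid1*, *Ggn*, *Ctbp2* and the genes found by symbol in the closing section were named after the table was seen. Replicates differed by more than counting error (chi-square per gene 7.47 between the Go6983 samples and 10.2 between the NT samples, over genes with at least 10 reads). The fit was also run on simulated data in which most genes were unchanged. As the listed genes were all selected for change, that run cannot check the p-values given here. Alternatives were 2 other scalings, pseudocounts of 0.1 and 0.01, filters at 10 and 50 normalized counts, each replicate left out, the replicate block, limma without trend, limma-voom on the recovered reads, and 2 other thresholds. Figures were drawn with matplotlib 3.10.9.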

Additional observations from a re-analysis of the deposited data

How the results depend on the processing

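*Dusp4*, *Etv4* and *Spry4* kept their direction and their call in all 13 other settings. With each replicate left out in turn, log2 fold changes ranged from -1.56 to -1.42 for *Dusp4*, from -1.41 to -1.38 for *Etv4*, from -1.30 to -1.11 for *Spry4* and from 0.85 to 1.16 for *Fos*. With the median ratio over the listed genes, which centres the selected list by its construction, *Fos* was at -0.12 (limma adjusted p = 0.676), *Kit* at -0.066, 176 listed genes and 0 pathway genes were called higher. With libraries scaled to their total reads in the listed genes, which shifts fold changes by a median of -0.13, *Fos* was at 0.87 (limma adjusted p = 0.00641). With a filter at 50 normalized counts, fewer genes were tested, and 620 were called higher and 273 lower. Leaving out 1 replicate gave 431 to 858 listed genes higher and 260 to 315 lower, and 2 to 5 pathway genes higher. Of the 16 other pathway genes, 6 were not called in at least 1 setting (*Gab2*, *Kdr*, *Kit*, *Prkcq*, *Rasgrp1* and *Shc4*).

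The replicate numbers are not known to pair the samples, as deviations of same-numbered samples correlated at 0.032 over all listed genes. With the replicate block 1070 genes were called higher and 466 lower, and the calls of the pathway genes were 5 higher and 15 lower as without it, with a limma adjusted p of 0.00511 for *Fos*. Counting error was 19.2% in Go6983-treated cells and 34.3% in NT cells for *Prkcq* and 21.8% and 13.9% for *Shc4*, whereas the *Kdr* replicates in Go6983-treated cells had a coefficient of variation of 50.6% against a counting error of 13.3%.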

Other observations

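Genes in none of the lists whose symbols start like those of pathway genes were looked for after the table was seen. A shared start of the symbol does not place a gene in the ERK pathway. There were 11, of which 6 were called higher in Go6983-treated cells and 5 lower. Of all 1577 listed genes, 98.5% were called in the same fit, 68.8% higher and 29.7% lower. Being called is therefore no result about these 11 genes. *Fgfbp1*, which encodes a protein that carries FGF out of the matrix, fell in Go6983-treated cells to 582 ± 46.3 normalized counts, against 1242 ± 120 in NT cells (SD, n = 2 each, limma adjusted p = 0.000733). *Dusp26*, an atypical dual-specificity phosphatase gene, fell to 87.3 ± 21.8, against 193 ± 22.9 in NT cells. *Mapk4*, which encodes an atypical MAP kinase, rose to 1130 ± 29.8 normalized counts, against 545 ± 91.5 in NT cells, and *Map3k13*, which encodes a kinase upstream of JNK, rose to 346 ± 8.08, against 152 ± 2.09 in NT cells. *Fgf14*, which encodes a member of the FGF family that stays inside the cell, was at 11.0 ± 1.06 in Go6983-treated cells and 35.9 ± 7.10 in NT cells. *Rasef*, a RAB family GTPase gene, was at 31.6 ± 14.3 in Go6983-treated cells and 105 ± 16.3 in NT cells. *Prkg2*, which encodes a cGMP-dependent protein kinase, rose, with 56.0 and 64.2 in the Go6983 samples, against 14.9 and 5.11 in the NT samples. The receptor-type tyrosine phosphatase genes moved apart, with *Ptprd* at 470 ± 3.83 in Go6983-treated cells and 229 ± 49.1 in NT cells, and *Ptpre* at 49.5 and 74.9 in the Go6983 samples and 130.3 and 132 in the NT samples. *Fgf2os*, the gene antisense to *Fgf2*, had 14.0 and 4.28 normalized counts in the Go6983 samples, and *Map3k7cl* had 13.1 and 13.9, against 0 for both genes in both NT samples, so no fold change is given for them.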
